A study of Mus musculus with 12 samples.

Results

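The subject here is the m6A writer complex, described through the transcripts of 8 of its subunits: Mettl3, Mettl14, Wtap, Virma, Zc3h13, Cbll1, Rbm15 and Rbm15b. The 8 genes were chosen by name, as the rows of the deposited table whose RefSeq identifier belongs to a listed mouse symbol. Each gene had 1 of the 19708 entries kept, and all 8 passed the filter on low levels that left 12704 entries for testing. Transcript 3′ ends were sequenced from mouse cells of the C57BL/6 strain, either embryonic stem cells (ESCs) or embryoid bodies (EBs), wild type (WT) or labelled Mettl3 knockout (KO). The medium of the ESCs had no serum but held LIF, CHIR99021 and PD0325901, which together keep these cells in the naive pluripotent state. EBs are floating aggregates in which ESCs differentiate, here in serum medium for 8 to 21 days, without a stated day for each library. The transcription blocker actinomycin was given for 0, 4 or 8 h before RNA was taken. This makes 12 groups of 1 library each, without replicates. The labels name neither the number of knockout clones, nor the part of Mettl3 that was deleted, nor whether the 3 times of a condition came from 1 culture, so p-values measure only the spread between these libraries, which may be technical.

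The writer complex places N6-methyladenosine (m6A) on mRNA in the nucleus. METTL3 binds the methyl donor and carries out the reaction, METTL14 is its structural partner in RNA binding, and WTAP holds this pair in nuclear speckles. VIRMA, ZC3H13 and the ubiquitin ligase CBLL1 (also called HAKAI) form a scaffold around WTAP, while RBM15 and RBM15B bind RNA and bring the complex to its targets. Cytoplasmic readers of the YTHDF family bind methylated mRNA and speed its decay, and mouse ESCs that lack Mettl3 are known for a hampered exit from the naive state.

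All 8 transcripts hold GGACT, one form of the sequence in which m6A is commonly found. The match nearest the stop codon is printed, 5′ to 3′ on the transcript strand with 8 bases on each side and GGACT in capitals, for the targeted gene and for the 3 subunits that passed the test of KO against WT in both cell types.
Mettl3: ccttaagaGGACTgtttacgc
Wtap: aatggcttGGACTcaaatgta
Rbm15: ggtgatcgGGACTtgcccagc
Rbm15b: ttggaaggGGACTggaccagc
The Mettl3 match lies in the 3′ UTR, its middle 62 bases past the last base of the stop codon, at chr14:52294910-52294930 (minus strand, GRCm38). The Wtap match lies in coding sequence, 34 bases before that base, at chr17:12967492-12967512 (minus strand). The Rbm15 match, at chr3:107331182-107331202, and the Rbm15b match, at chr9:106885321-106885341, are also coding and on the minus strand, 1000 and 1027 bases before it. A match is a description of the letters and not evidence of methylation. GGACT, searched on the transcript strand alone, occurred in 91.6% of 12600 tested transcripts with a GENCODE model, at a median of 3 matches each, and the members had from 2 (Rbm15) to 7 (Zc3h13 and Virma).

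The members differ in structure. Rbm15b is a single exon of 6511 nt and Rbm15 has 2 exons with 79.6% of its length in the longer one, against a median of 9 exons and 48.6% over the tested transcripts. Wtap has 8 exons with 61.1% in the longest and Cbll1 has 6 with 88.4%. Mettl3 (11 exons, 20% in the longest), Mettl14 (11 exons, 50.9%), Zc3h13 (19 exons, 19.4%) and Virma (25 exons, 17.4%) make up the rest. The genes lie at chr14:52294841-52308741 (Mettl3, NM_019721), chr3:123368295-123385990 (Mettl14, NM_201638), chr17:12966799-12992543 (Wtap, NM_001113533) and chr4:11485958-11551143 (Virma, NM_001081183). The others lie at chr14:75284306-75344433 (Zc3h13, NM_026083), chr12:31484829-31500676 (Cbll1, NM_134048), chr3:107305511-107334460 (Rbm15, NM_001045807) and chr9:106880928-106887075 (Rbm15b, NM_175402), all on RefSeq's GRCm38.p6.

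Levels are the deposited normalized values in the file's own units. Column totals were lowest in the WT EB library of 8 h (3.67e+06) and highest in the KO ESC library of 8 h (1.11e+07), a 3.02-fold span, and the libraries held 208874 to 666803 read equivalents, a depth inferred from the steps of the values. Genes of families not normally expressed in such cells, such as olfactory receptors and defensins, were above 0 in 6.93% to 9.73% of cases in ESC libraries and in 26.8% to 36.3% in EB libraries. Their 95th percentile level was 19.6 to 31.4 in ESC libraries and 45.3 to 72.4 in EB libraries. The summed level of 10 ESC markers was 80181 to 90614 in WT ESCs, 45870 to 52643 in KO ESCs, 10186 to 42939 in WT EBs and, in KO EBs, 29708 to 37864, with none of the markers at 0. Gene by gene, 3 of these 10 were called higher and 3 lower in KO ESCs (median 0.36), and 6 higher and 0 lower in KO EBs (median 1.54). That of 8 endoderm markers was 4415 to 7460 in WT EBs (1 marker at 0 at 8 h), but in the KO EB libraries it was 214 to 373 (up to 2 at 0), close to the 206 to 341 in ESCs. The libraries labelled KO EBs lacked the endoderm signal of WT EBs. The sum of 5 fibroblast or feeder markers was 686 to 1241 in WT EBs and, in KO EBs, 287 to 529.6, with 1 of 2 tested called lower, and the 1 mesoderm marker of 5 that was tested was called higher in KO in both cell types. The part of these differences in the results below was not tested. In bulk samples, fewer cells of a type and less RNA per cell cannot be told apart.

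Mettl3, the targeted gene, was the scarcest member, with 1.56 to 11.9 read equivalents in a library. Its level at 0, 4 and 8 h was 251, 64.8 and 113 in WT ESCs, 98.1, 65.4 and 41.8 in KO ESCs, 175, 86.0 and 77.4 in WT EBs, and 16.8, 40.7 and 83.9 in KO EBs. The KO libraries lay below WT at 0 h in both cell types, but the groups overlapped at later times. In KO EBs at 0 h and 4 h it lay under the 95th percentile of the silent families, 46.0 and 45.3. At 0 h the KO over WT ratio was 0.391 in ESCs (95% counting interval 0.0889 to 1.34) and 0.0956 in EBs (0.00693 to 0.489). At 8 h in EBs it was 1.08 (0.285 to 4.71). Over the 3 times the difference was -0.84 ± 0.51 (SE) in ESCs and -1.23 ± 0.51 in EBs on the log2(level + 8.58) scale, with limma adjusted p of 0.311 and 0.175, so neither passed the threshold of 0.05. A 3′ tag outside the deleted part does not check a knockout, and the labels do not give that part. The Mettl3 transcript also shares 1561 nt of its span, its 3′ end included, with Tox4 on the opposite strand, whose level was 157 to 787. The sources used here do not say whether counting used strand.

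**Figure D1:**
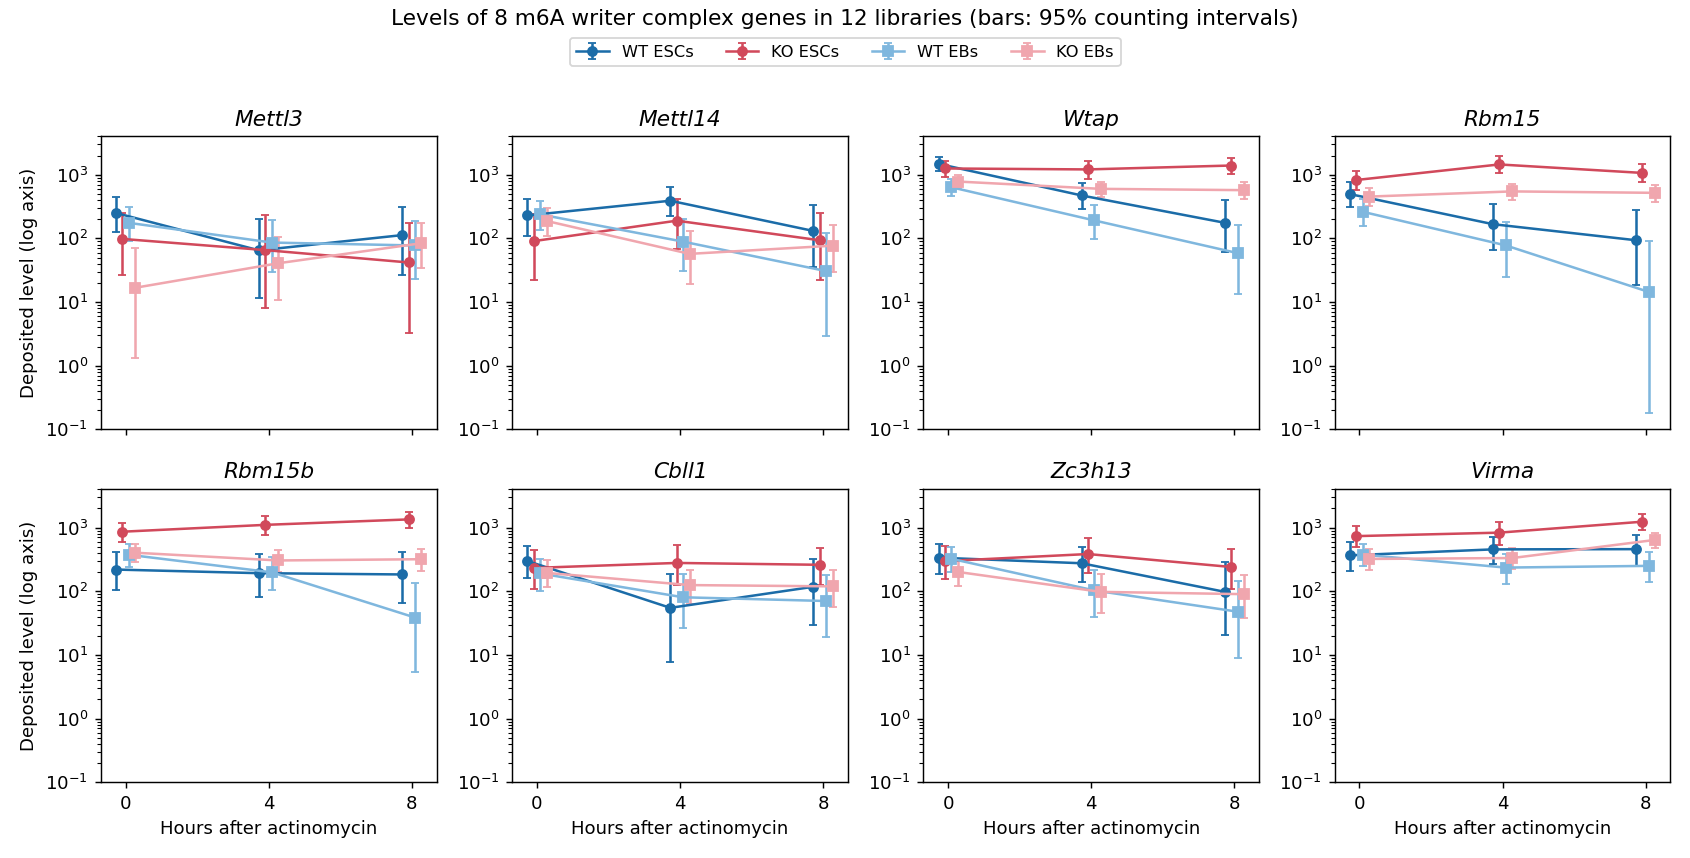
Deposited level (log axis) of each of the 8 writer complex genes against hours after actinomycin, 1 point per library, with 95% counting intervals as bars and 1 colour per condition. Wtap and Rbm15 stay high in the KO libraries at 8 h (Wtap 1395 in KO ESCs and 572 in KO EBs) while the WT libraries reach 176 and 58.7.

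Averaged over 0, 4 and 8 h, transcripts of RNA-binding subunits Rbm15 and Rbm15b and scaffold subunits Wtap and Virma were higher in KO ESCs. No member was called lower. At 0 h the counting interval of the KO over WT ratio took in 1 for Wtap (0.573 to 1.24) and Rbm15 (0.937 to 3.00). It left out 1 for Rbm15b (1.88 to 9.08) and Virma (1.05 to 3.95). The differences were 2.41 ± 0.31 for Rbm15b (adjusted p = 0.000179), 2.39 ± 0.32 for Rbm15 (0.000251), 1.34 ± 0.26 for Wtap (0.00306) and 1.09 ± 0.29 for Virma (0.0192), as limma's log2 difference of the mean over 0, 4 and 8 h. These 4 of 8 stand against 14.1% of all entries called, 10.9% as higher and 3.27% as lower. The members' median was 1.03, and that of all tested entries 0.18. The other members did not pass: Cbll1 at 0.97 ± 0.47 (adjusted p = 0.195), Zc3h13 at 0.51 ± 0.38 (0.424), Mettl14 at -0.91 ± 0.49 (0.255) and Mettl3.

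Rbm15b, the paralog of Rbm15, had the highest KO over WT ratio of the members in ESCs before actinomycin. Its level at 0, 4 and 8 h was 219, 193 and 184 in WT ESCs and 863, 1106 and 1347 in KO ESCs, so every KO library lay above every WT library. The 0 h ratio was 3.93 (95% counting interval 1.88 to 9.08). In GENCODE the span of Manf, on the same strand, covers the whole Rbm15b transcript, and Manf's levels were 812 to 3301. Dcaf1, on the opposite strand, shares 75 nt with Rbm15b, the 3′ end of Rbm15b included. At 0, 4 and 8 h Dcaf1 was at 808, 953 and 477 in KO ESCs and 481, 422 and 458 in WT ESCs. Manf was itself at 1523, 3301 and 3087 in KO ESCs and 1704, 1028 and 812 in WT ESCs, and the sources used here do not say how shared reads were assigned.

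Rbm15 levels did not overlap between genotypes in ESCs, at 497, 167 and 93.6 in WT and 826, 1451 and 1068 in KO. At 0 h the ratio was 1.66 (95% counting interval 0.937 to 3.00), and at 8 h it was 11.4 (3.55 to 60.8). Most of the spread between the genotypes thus lay in the treated libraries. Virma, the largest scaffold subunit, was at 367, 455 and 459 in WT ESCs and at 736, 834 and 1239 in KO ESCs, again without overlap. Its ratio was 2.01 (1.05 to 3.95) at 0 h and 2.70 (1.46 to 5.31) at 8 h. The share of all tested entries without overlap between the genotypes was not counted in either cell type. A lack of overlap is thus only a description of these libraries.

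Wtap, the adaptor that anchors METTL3 and METTL14, had KO and WT levels that stood apart in the treated libraries but not at 0 h. Its level was 1482, 473 and 176 in WT ESCs and 1254, 1212 and 1395 in KO ESCs. The 0 h values overlapped within counting error, with a ratio of 0.846 (95% counting interval 0.573 to 1.24), while the 8 h ratio was 7.93 (3.28 to 24.2). Cbll1 was at 299, 54.9 and 118 in WT and 233, 279 and 261 in KO, and Zc3h13 at 337, 276 and 98.1 in WT and 298, 385 and 241 in KO. For both, the WT library of 0 h lay within or above the KO range, and the genotypes overlapped. Mettl14 was lower in KO at each time, at 229, 391 and 131 in WT and 90.5, 189.8 and 93.3 in KO, with the ranges overlapping. Over the members, the median KO minus WT difference was -0.21 at 0 h, 1.10 at 4 h and 1.32 at 8 h, against 0.03, 0.23 and 0.26 for all tested entries.

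The Rbm15 and Rbm15b differences in ESCs passed the test in all 22 alternatives. The Wtap call was lost without KO ESCs at 0 h or at 8 h (1.26 each, adjusted p by limma 0.0644 and 0.0665), and that of Virma without WT ESCs at 0 h or 8 h (0.99) or without KO ESCs at 0 h or 8 h (0.96). Additive time terms give all conditions a shared time course, so that differences between their time courses count as spread. They also ended both calls (adjusted p by limma 0.111 for Wtap and 0.085 for Virma). The Virma call was lost without a variance trend (adjusted p by limma 0.0676). Without its 0 h or 8 h library, a condition's level in the fit is that of its 4 h library alone. Without WT ESCs of 0 h or 8 h, Cbll1 was at 2.06. The call it gained there rests on the WT ESC library of 4 h, with 2.22 read equivalents of Cbll1.

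In EBs, Rbm15, Wtap and Rbm15b were higher in KO and no member was called lower. The log2 differences were 2.66 ± 0.32 for Rbm15 (limma adjusted p = 9.37e-05), 1.67 ± 0.26 for Wtap (0.00067) and 1.17 ± 0.31 for Rbm15b (0.0274). These 3 of 8 stand against 9.22% of all entries called, 7.66% as higher and 1.56% as lower. The members' median was 0.48, against 0.09 for all tested entries. Virma (0.53 ± 0.29, adjusted p = 0.331), Cbll1 (0.44 ± 0.47), Mettl14 (0.08 ± 0.49), Zc3h13 (0.03 ± 0.38) and Mettl3 did not pass.

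Rbm15 was at 262, 77.6 and 14.4 in WT EBs and at 454, 547 and 519 in KO EBs, with no shared range, a trait not counted over all entries. The WT library of 8 h held under 1 read equivalent of it (0.82), so the 8 h ratio of 36.0 has a 95% counting interval of 5.34 to 2918. In that library Rbm15, Mettl14, Rbm15b, Zc3h13, Wtap and Cbll1 were all under the 72.4 that marks the 95th percentile of the silent families there. The 0 h ratio was 1.73 (0.976 to 3.20), close to that in ESCs. Wtap was at 636, 191 and 58.7 in WT EBs and at 782, 600.0 and 572 in KO EBs. Only the WT library of 0 h reached into the KO range, and the ratio went from 1.23 (0.833 to 1.83) at 0 h to 9.74 (3.30 to 43.8) at 8 h.

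Rbm15b was at 375, 198 and 38.7 in WT EBs and at 404, 305 and 319 in KO EBs, so unlike in ESCs the 0 h libraries were near each other, with a ratio of 1.08 (95% counting interval 0.635 to 1.85). Virma was at 377, 236 and 251 in WT EBs and at 322, 333 and 642 in KO EBs, and only its 8 h ratio, 2.56 (1.41 to 4.96), had a counting interval that left out 1. Mettl14 was at 238, 88.9 and 30.6 in WT EBs and at 188, 57.1 and 76.8 in KO EBs. Cbll1 was at 191, 80.5 and 70.4 in WT EBs and at 195, 125 and 119 in KO EBs. Zc3h13 was at 324, 103 and 47.8 in WT EBs and at 201, 97.8 and 90.1 in KO EBs. In these 3 genes the genotypes overlapped. Over the members the median was -0.10 at 0 h, 0.53 at 4 h and 1.23 at 8 h, against -0.18, 0.11 and 0.38 for all tested entries.

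In EBs, Rbm15 passed in 21 of 22 alternatives and missed the threshold without both EB libraries of 8 h (2.69, adjusted p by limma 0.0616). Wtap was lost without KO EBs at 0 h or 8 h (1.57 each, adjusted p by limma 0.0634 and 0.066), with additive time terms (0.0748) and without both EB libraries of 8 h (1.61, 0.175). Without both EB libraries of 8 h, each value is that of the KO and WT EB libraries of 4 h alone. Rbm15b was lost in 11 of 22 alternatives. They include leaving out any of WT EBs at 0 h or 8 h (0.75 each), KO EBs at 0 h or 8 h (1.01 each) and KO EBs at 4 h (1.24), and both EB libraries of 8 h (0.60). The call of Rbm15b also ended with equal column totals (adjusted p by limma 0.0747), median-ratio scaling (0.0668), ribosomal protein scaling (0.154), no variance trend (0.0959) and additive time terms (0.253). The median of all tested entries moved from 0.09 to -0.16 with equal column totals, -0.11 with median-ratio scaling and -0.29 with ribosomal protein scaling. Relative to that median, Rbm15 was at 2.57 as deposited and at 2.71, 2.68 and 2.70 under the 3 scalings, Wtap at 1.58 and at 1.63, 1.62 and 1.62, and Rbm15b, whose call ended under each of them, at 1.08 and at 1.14, 1.13 and 1.13. A scaling shifts all entries of a library alike, so these relative values could hardly change and do not test the scaling. With ribosomal protein scaling the called entries of the whole table numbered 876, of which 418 were higher, against 973 of 1171 as deposited.

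**Figure D2:**
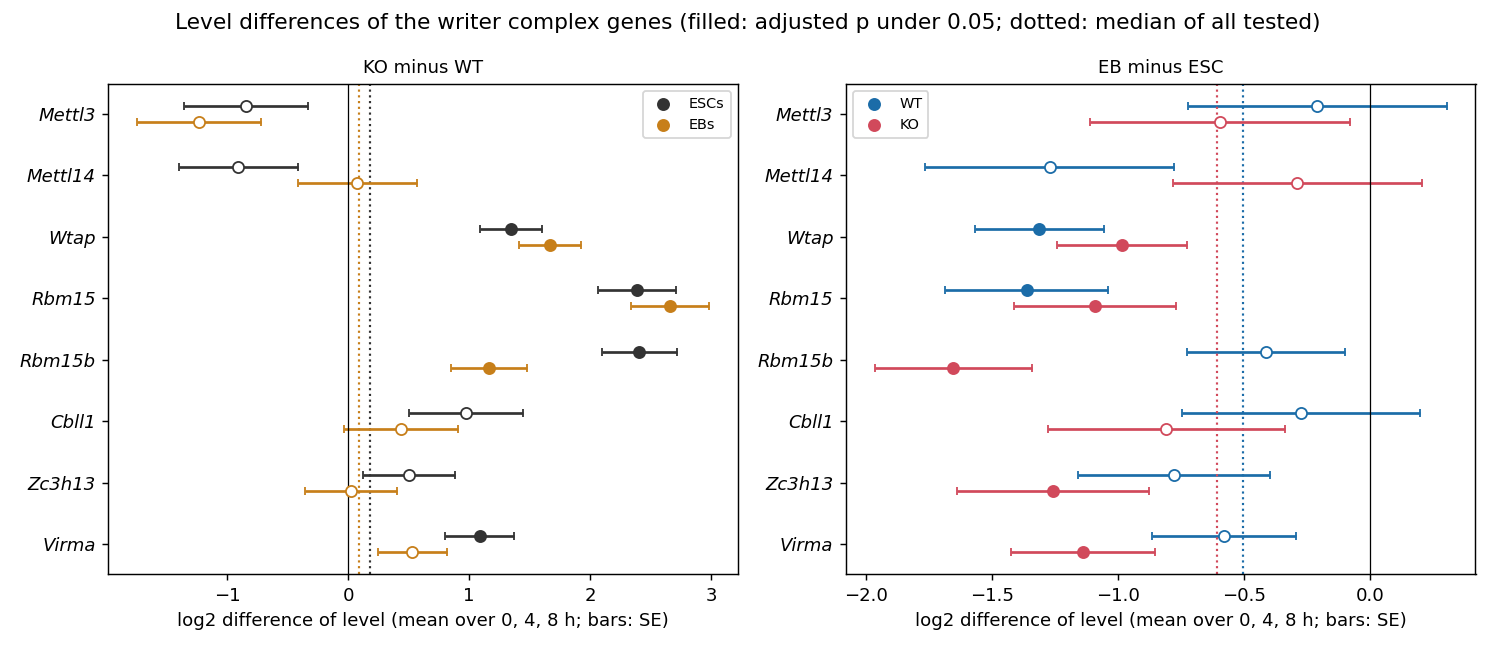
Log2 difference of level (mean over 0, 4 and 8 h, x axis) for each writer complex gene, KO minus WT on the left and EB minus ESC on the right, with SE as bars, filled points for adjusted p under 0.05 and dotted lines at the median of all tested entries. Rbm15, Rbm15b and Wtap are filled in both cell types on the left, and all points on the right lie below 0 with the deposited scaling.

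The difference between the cell types was tested itself. No member's KO minus WT difference differed between EBs and ESCs by limma at adjusted p under 0.05, while 2.86% of all entries did (1.5% with a larger and 1.35% with a smaller value in EBs), and 1 member had an unadjusted p under 0.05. That was Rbm15b, whose difference was 1.24 smaller in EBs (-1.24 ± 0.44, adjusted p by limma 0.164). For Rbm15 the difference of differences was 0.27 ± 0.46 and for Wtap 0.33 ± 0.36, which turned to -0.07 and -0.11 with ribosomal protein scaling. It was 0.98 ± 0.70 for Mettl14, -0.56 ± 0.40 for Virma and -0.54 ± 0.67 for Cbll1. Zc3h13 was at -0.48 ± 0.54 and Mettl3 at -0.39 ± 0.73.

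Between the cell types, 2 of 8 members in WT and 5 of 8 in KO were called lower in EBs with the deposited scaling, the former a share near that of all entries. In WT, Rbm15 (-1.36 ± 0.32, limma adjusted p = 0.00435) and Wtap (-1.31 ± 0.26, 0.0012) were called lower, and 0 members higher, where 32.6% of all entries were called, 29.1% as lower and 3.49% as higher. Mettl14 missed the threshold (-1.27 ± 0.49, adjusted p = 0.0615), and Zc3h13 (-0.78 ± 0.38), Virma (-0.58 ± 0.29), Rbm15b (-0.41 ± 0.31), Cbll1 (-0.27 ± 0.47) and Mettl3 (-0.21 ± 0.51) did not pass. The median was -0.68 for the members and -0.50 for all tested entries. In KO, Rbm15b (-1.65 ± 0.31), Zc3h13 (-1.26 ± 0.38), Virma (-1.14 ± 0.29), Rbm15 (-1.09 ± 0.32) and Wtap (-0.98 ± 0.26) were called lower, with limma adjusted p from 0.00299 to 0.0276. That is 5 of 8, where 24.1% of all entries were called, 23.2% as lower and 0.929% as higher, and the medians were -1.04 and -0.61. Cbll1 (-0.81 ± 0.47), Mettl3 (-0.59 ± 0.51) and Mettl14 (-0.29 ± 0.49) did not pass in KO.

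These differences rest on the scaling. With equal column totals, median-ratio and ribosomal protein scaling, the median of all tested entries in WT turned to 0.42, 0.17 and 0.34, and 0 members were called under each. In KO it moved to 0.09, 0.06 and -0.23, with 0, 0 and 1 member called. Relative to the median of all tested entries, Wtap in WT was at -0.81 as deposited and at -0.87, -0.84 and -0.85 under the 3 scalings, and Rbm15 at -0.86 and at -1.01, -0.97 and -0.997. In KO, Rbm15b was at -1.05 as deposited and at -1.06, -1.04 and -1.06. Because a scaling shifts all entries of a library alike, such relative values could hardly change and do not test the scaling. Without WT ESCs at 0 h or 8 h the WT difference of Rbm15 was -1.11, and without WT EBs at 0 h or 8 h it was -1.28, with the call lost in each. Leaving out KO EBs at 0 h or at 8 h ended all 5 calls in KO, leaving out KO EBs at 4 h or KO ESCs at 0 h or 8 h left 1, and leaving out KO ESCs at 4 h left 3. Mettl14 passed in WT without WT ESCs at 0 h or 8 h (-2.03 each), where the level of WT ESCs is that of the 4 h library alone.

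After actinomycin, Wtap, Rbm15 and Zc3h13 fell when the 4 conditions were averaged, at -0.21 ± 0.03, -0.17 ± 0.03 and -0.18 ± 0.04 log2 per hour (limma adjusted p = 0.000191, 0.00356 and 0.00677). That is 3 of 8, where 21.7% of all entries were called, 21.4% as falling and 0.236% as rising. Mettl14 (-0.14 ± 0.05, adjusted p = 0.0692), Rbm15b (-0.09 ± 0.03, 0.0638), Cbll1 (-0.10 ± 0.05), Mettl3 (-0.04 ± 0.06) and Virma (0.05 ± 0.03) did not pass. The call of Rbm15 was lost with median-ratio scaling (adjusted p by limma 0.0576), without both EB libraries of 8 h (0.208) and without WT ESCs at 0 h (-0.14), KO ESCs at 8 h (-0.13) or KO EBs at 8 h (-0.16). The call of Zc3h13 was lost with equal column totals (adjusted p by limma 0.0551), with median-ratio scaling (0.0909), without both EB libraries of 8 h (0.0997) and without WT ESCs at 8 h (-0.14), KO ESCs at 8 h (-0.15), WT EBs at 0 h (-0.16) or KO EBs at 0 h (-0.15). Mettl14 passed without WT ESCs at 0 h (-0.21) or 4 h (-0.14), and Cbll1 without WT ESCs at 8 h (-0.20). Each slope depends on how the levels were scaled and is no half-life.

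The averages hide a contrast between genotypes, described here by each condition's slope ± SE. Wtap ran at -0.38 ± 0.06 log2 per hour in WT ESCs and -0.41 ± 0.06 in WT EBs, but at 0.02 ± 0.06 in KO ESCs and -0.06 ± 0.06 in KO EBs. Rbm15 ran at -0.29 ± 0.07 and -0.44 ± 0.07 in WT ESCs and WT EBs, and at 0.05 ± 0.07 and 0.02 ± 0.07 in KO. Both genes thus had steep negative slopes in the WT conditions and slopes within about their SE of 0 in KO. The median slope of all tested entries was also lower in WT. It was -0.04 in WT ESCs and -0.01 in KO ESCs, and -0.12 in WT EBs and -0.03 in KO EBs. Rbm15b was near level in ESCs, at -0.03 ± 0.07 in WT and 0.08 ± 0.07 in KO, and differed in EBs, at -0.38 ± 0.07 in WT and -0.04 ± 0.07 in KO. Virma had no negative slope outside WT EBs (-0.07 ± 0.06), at 0.04 ± 0.06, 0.09 ± 0.06 and 0.12 ± 0.06 in WT ESCs, KO ESCs and KO EBs. In WT ESCs, KO ESCs, WT EBs and KO EBs, Mettl14 ran at -0.10, 0.0051, -0.33 and -0.15 (SE 0.11). In the same order Zc3h13 ran at -0.21, -0.04, -0.32 and -0.14 (SE 0.08). Cbll1 ran at -0.16, 0.02, -0.17 and -0.08 (SE 0.10), and Mettl3 at -0.14, -0.14, -0.14 and 0.23 (SE 0.11).

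**Figure D3:**
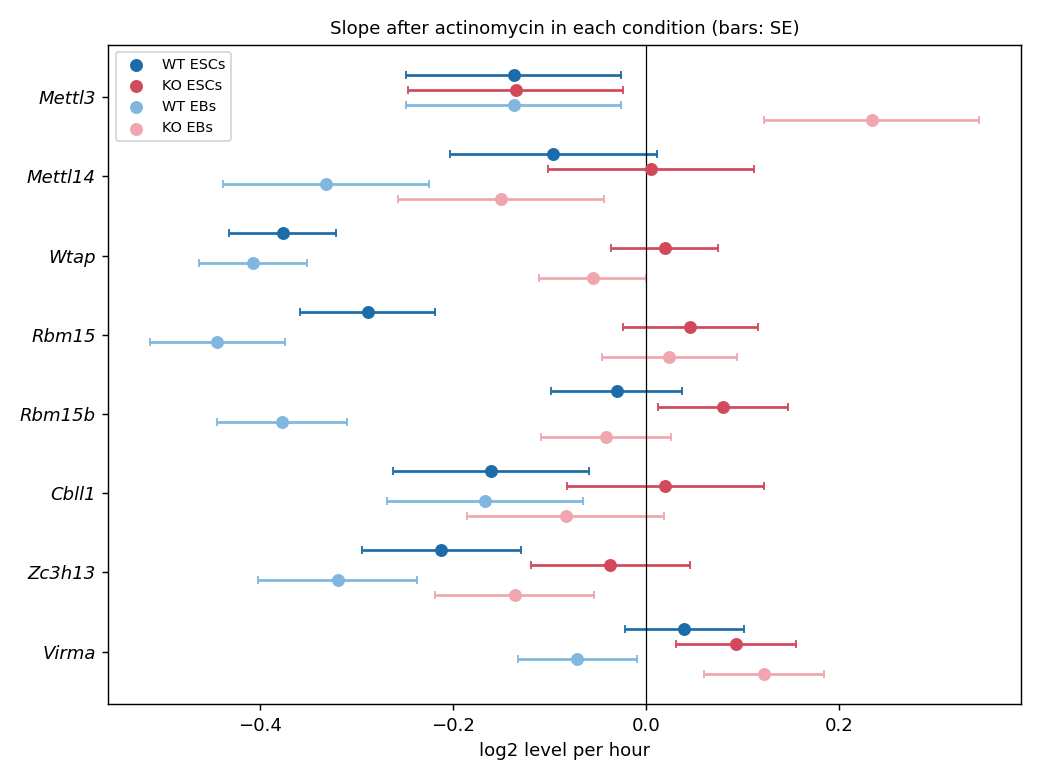
Slope of log2 level per hour after actinomycin (x axis) of each writer complex gene in the 4 conditions, with SE as bars. Wtap and Rbm15 sit between -0.29 and -0.44 in the WT conditions and between -0.06 and 0.05 in KO.

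The slope difference KO minus WT was above 0 for all 8 members in both cell types with the deposited scaling, as it was for 7779 of the 12704 entries in ESCs and 8863 in EBs. Under each of the 3 other scalings Mettl3 in ESCs and Cbll1 in EBs turned negative. In ESCs no member passed by limma, where 0.0394% of all entries (5) were called, and 2 members had an unadjusted p under 0.05. These were Wtap at 0.40 ± 0.08 log2 per hour (adjusted p = 0.0742 by limma) and Rbm15 at 0.33 ± 0.10 (0.226). Cbll1 was at 0.18 ± 0.14, Zc3h13 at 0.17 ± 0.12, Rbm15b at 0.11 ± 0.10 and Mettl14 at 0.10 ± 0.15. Virma was at 0.05 ± 0.09 and Mettl3 at 0.0022 ± 0.16. The members' median was 0.14, against 0.04 for all tested entries. In EBs, Rbm15 (0.47 ± 0.10, limma adjusted p = 0.0385) and Wtap (0.35 ± 0.08, 0.0443) passed, 2 of 8, where 1.19% of all entries were called, all as higher. Rbm15b was at 0.34 ± 0.10 (adjusted p = 0.0845), Mettl3 at 0.37 ± 0.16 (0.239), Virma at 0.19 ± 0.09 (0.274), Zc3h13 at 0.18 ± 0.12, Mettl14 at 0.18 ± 0.15 and Cbll1 at 0.08 ± 0.14. The median was 0.26 for the members and 0.08 for all tested entries. Between EBs and ESCs the slope difference changed by -0.04 ± 0.11 for Wtap and 0.13 ± 0.14 for Rbm15.

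The EB slope calls are fragile. The values of Wtap and Rbm15 stayed above 0 in all 21 alternatives that give a slope, at 0.20 to 0.39 and 0.32 to 0.53, but the calls were lost in 18 of them. Among single libraries, leaving out WT EBs at 4 h kept the calls and leaving out any of the other 11 ended both. The lowest values were those with ribosomal protein scaling for Wtap (0.20, adjusted p by limma 0.73) and with a larger pseudocount for Rbm15 (0.32, adjusted p by limma 0.0712). WT EBs at 8 h, the library with the lowest column total, is 1 of the libraries on which these slopes rest. Without it Wtap was at 0.37 (adjusted p by limma 0.485) and Rbm15 at 0.44 (0.568).

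As a share of the 0 h level, 8 h after actinomycin Wtap was at 11.9% in WT ESCs (95% counting interval 3.92% to 28.4%) and at 111% in KO ESCs (74.0% to 167%). In EBs it was at 9.24% in WT (2.05% to 27.5%) and at 73.2% in KO (49.8% to 107%). The WT and KO intervals did not overlap in either cell type with the deposited scaling. In EBs they overlapped with equal column totals (WT 4.63% to 62.2%, KO 56.4% to 121%) and with ribosomal protein scaling (5.15% to 69.2% and 49.2% to 106%). The share of all tested entries with WT and KO intervals apart was not counted, so intervals apart only describe these libraries. The median share left over all tested entries was also lower in WT, at 76.4% against 93.3% in ESCs and 49.0% against 83.0% in EBs. Rbm15 was at 18.8% in WT ESCs (3.42% to 64.1%) and 129% in KO ESCs (79.4% to 212%), and at 5.51% in WT EBs (0.0660% to 40.05%) and 115% in KO EBs (73.3% to 179%), again without overlap as deposited. The Rbm15 intervals overlapped in ESCs with median-ratio scaling (WT up to 85.9%, KO from 85.4%), and in EBs with equal column totals (90.6% and 83.0%) and ribosomal protein scaling (101% and 72.5%). Rbm15b was at 83.8% in WT ESCs and 156% in KO ESCs with overlapping intervals, and in EBs it was at 10.3% in WT (1.37% to 39.3%) and 79.1% in KO (46.4% to 133%), apart as deposited but overlapping under each of the 3 other scalings.

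Virma was the member with the most left in WT, at 125% in ESCs and 66.6% in EBs, and was at 168% and 199% in KO. Its WT and KO intervals overlapped in ESCs (56.6% to 274% and 104% to 277%) and in EBs (32.2% to 132% and 125% to 322%). Mettl14 was at 57.1% in WT ESCs, 103% in KO ESCs, 12.9% in WT EBs and 40.9% in KO EBs. Cbll1 was at 39.3%, 112%, 36.9% and 61.4% in the same order, and Zc3h13 at 29.1%, 80.8%, 14.8% and 44.8%. For these 3 genes the intervals of WT and KO overlapped in each cell type. The Mettl3 shares rest on few reads, at 44.9%, 42.7% and 44.1% in WT ESCs, KO ESCs and WT EBs, and in KO EBs the 8 h level was 501% of a 0 h level of 1.58 read equivalents.

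**Figure D4:**
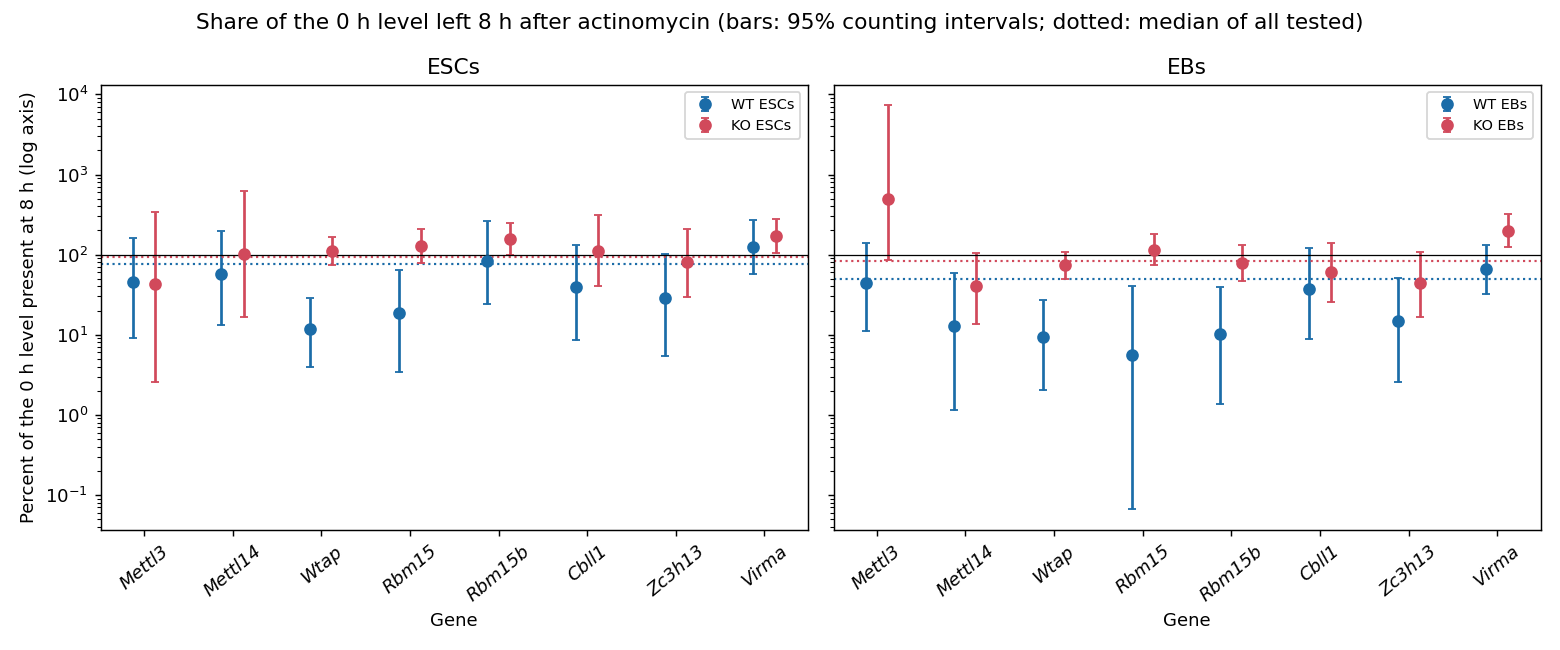
Percent of the 0 h level present 8 h after actinomycin (log axis) for each writer complex gene in ESCs (left) and EBs (right), WT and KO, with 95% counting intervals as bars, dotted lines at the median of all tested entries and a solid line at 100%. Wtap and Rbm15 lie at 5.51% to 18.8% in WT and at 73.2% to 129% in KO with the deposited scaling.

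The members' median share left at 8 h was 42.1% in WT ESCs, 112% in KO ESCs, 13.8% in WT EBs and 76.1% in KO EBs. The medians of all tested entries were 76.4%, 93.3%, 49.0% and 83.0%. Under 50% was left for 5, 1, 7 and 2 of the 8 members in the same order. The share of all tested entries under 50% was not counted, and in WT EBs their median was itself under 50%. Summed over the members, the 8 h level was 37.3%, 129%, 22.9% and 94.6% of the 0 h level. The share in WT EBs depends on scaling and rose to 51.7% with equal column totals, 49.2% with median-ratio scaling and 57.5% with ribosomal protein scaling.

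Of 22 other genes of the pathway (10 readers, 2 erasers, 6 genes of other RNA methyltransferases and their cofactor, 3 genes of methyl donor supply and Spen, a relative of Rbm15), all were tested. In ESCs 4 were higher and 1 lower in KO: the reader genes Ythdf2 (2.45 ± 0.24), Ythdf1 (2.09 ± 0.36) and Ythdc1 (1.59 ± 0.30) and the methyltransferase gene Mettl4 (2.61 ± 0.69) were higher, and the reader gene Igf2bp3 (-1.57 ± 0.34) was lower. Mettl4 was at 45.9, 63.8 and 0 at 0, 4 and 8 h in WT ESCs and at 175, 308 and 124 in KO ESCs. Its difference thus rests in part on the 8.58 added to each level. In EBs 3 were higher and 1 lower: Ythdf2 (2.35 ± 0.24), the demethylase gene Alkbh5 (1.67 ± 0.33), Ythdc1 (1.03 ± 0.30) and Igf2bp3 (-1.39 ± 0.34). Over all entries 10.9% were higher and 3.27% lower in ESCs, and 7.66% and 1.56% in EBs. The medians of the 22 were 0.10 in ESCs and 0.42 in EBs. Between cell types 12 in WT and 11 in KO were lower in EBs and 0 higher, and 9 fell after actinomycin on average, where 29.1% and 23.2% of all entries were lower and 21.4% fell. As for the members, the scaling moves the level of all entries between cell types. The KO minus WT slope difference passed for 0 of the 22 in ESCs by limma (3 at an unadjusted p under 0.05). In EBs it passed for Ythdf2 alone, at 0.47 ± 0.07 (adjusted p by limma 0.0287). Over the whole table, 0 entries were called higher in this EB test under each of the 3 other scalings. The same held without a variance trend and without both EB libraries of 8 h. Ythdf2 was at 782, 462 and 326 in WT ESCs and 2752, 2510 and 2894 in KO ESCs, without overlap, a trait not counted over all entries.

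Tested entries without a symbol, or with a Gm number or Rik symbol, were left out of the search for like patterns. The entries whose pattern over the 12 libraries was most like a member's were found by the root mean square difference of log2 levels, each centred on its own mean. For Rbm15 these were Usp10 (0.31) and Ythdf2 (0.33), and for Wtap Zbtb45 (0.27) and Snx18 (0.28). For Rbm15b they were Mrpl14 (0.34) and Rbmxl1 (0.39), for Virma Mrpl10 (0.21) and Trmt10a (0.22), and for Zc3h13 Akap8 (0.22) and Mtfr1 (0.22). For Cbll1 they were Ptpn12 (0.24) and Polr3d (0.27), for Mettl14 Rrp9 (0.33) and Atad2 (0.35), and for Mettl3 Shc2 and Clca4a (0.40 each). Within the complex the closest pair was Wtap and Rbm15 (0.59). Of the entries searched, 0.426% lay nearer to Rbm15 than Wtap did, and 1.77% nearer to Wtap than Rbm15 did. The pair Mettl14 and Zc3h13 followed at 0.60, with 3.75% of entries nearer to Mettl14 and 13.1% nearer to Zc3h13. No other subunit was near Mettl3, for which Cbll1 was the closest at 1.06, with 46.1% of entries nearer. All these distances share the same 12 libraries and their scaling.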

How the data were processed

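The values are a non-negative signal, deposited by the authors as normalized levels in a table with a row per RefSeq transcript and a column for each of 12 libraries. Tools named in the submitters' processing notes are Bowtie, Bowtie2 2.1.0 and CASAVA 1.8.2, with mm10 as the build, while the counting and scaling are not given in the sources used here. Of 19746 entries, 19535 were matched to symbols in RefSeq (GRCm38.p6) and 98 in GENCODE, and 38 identical duplicates were dropped. In each library at least 99.8% of values under 100 were whole multiples of a step, within 0.1 of a step, and 50 steps were taken as 1 read. Counting intervals are exact (Poisson for levels, Clopper-Pearson for ratios), at 95%, and cover counting error only.

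Levels were tested with limma 3.58.1 (R 4.3.3) on log2(level + 8.58), 8.58 being 1 ppm of the mean column total, which understates the change of low genes. Entries with a mean of at least 42.9 (5 ppm) were kept. The fit had an intercept and a line over hours for each of 4 conditions (8 coefficients, 4 residual degrees of freedom, a trended prior worth 11.1), so the spread is the scatter around those lines. Benjamini-Hochberg adjustment ran over all 12704 entries, at 0.05. Scripts were tested on simulated data. Alternatives were 2 pseudocounts, no filter, 3 scalings, no variance trend, additive time terms, summed symbols, no EB libraries of 8 h, and leaving out each library. A condition without its 0 h or 8 h library has a line through its remaining points. Its level is then that of its 4 h library alone and no longer a mean over the times.

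Every member is named in each comparison of levels, in the mean slope and in the KO minus WT slope difference of each cell type. The slope difference between cell types is given for Wtap and Rbm15 alone. At most 4 called genes of each other list and the 2 nearest entries of each member are named. The members and lists were chosen with earlier results of these data known. Slopes of single conditions and the slope difference between cell types are given as estimates with SE, without their p; by limma 0 entries were called for the latter (960 at an unadjusted p under 0.05). Figures used matplotlib 3.10.9.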

Additional observations from a re-analysis of the deposited data

How the results depend on the processing

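The 64 member results, under up to 22 alternatives each, gave 1384 values. Of these 1169 kept direction and side of the threshold, 139 lost the call, 7 gained it and 69 changed sign, 0 of the last in a called result. No paired analysis was possible because each group had 1 library and the labels give no replicate numbers. Additive time terms give all conditions a shared time course, so that differences between their time courses count as spread. Depth limits the scarcest values, such as Mettl3 (1.56 to 11.9 read equivalents) and Rbm15 in WT EBs at 8 h (0.82).

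The count of members called in KO against WT was 4 in ESCs and 3 in EBs. It was 2 and 1 with additive time terms, and 0 in EBs without both EB libraries of 8 h. Leaving out 1 library at a time gave 2 to 4 in ESCs and 1 to 3 in EBs. For EB minus ESC in WT (2 called) the count was 0 with equal column totals, median-ratio scaling, ribosomal protein scaling and additive time terms. It was 1 when both EB libraries of 8 h were dropped, and 1 to 2 leaving out 1 library. For EB minus ESC in KO (5 called) it was 0 with equal totals, median-ratio scaling, additive terms, no variance trend and without both EB libraries of 8 h, 1 with ribosomal protein scaling, and 0 to 5 leaving out 1 library. For the mean slope (3 called) it was 1 with median-ratio scaling and without both EB libraries of 8 h, and 1 to 4 leaving out 1 library. For the slope difference in EBs (2 called) it was 0 with a pseudocount of 5 ppm, without a filter, under the 3 scalings, without a variance trend and without both EB libraries of 8 h, and 0 to 2 leaving out 1 library. The summed share left changed to 100.3% (KO ESCs, 8 h, ribosomal protein scaling), 56.5% and 59.7% (WT EBs, 4 h, equal totals and median-ratio), 51.7%, 49.2% and 57.5% (WT EBs, 8 h, the 3 scalings) and 117% (KO EBs, 8 h, median-ratio). The causes were not tested.

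Signs changed in results without a call. In EB KO minus WT levels, with equal totals, median-ratio and ribosomal protein scaling, Zc3h13 was at -0.18, -0.13 and -0.31 and Mettl14 at -0.12, -0.069 and -0.24. Without both EB libraries of 8 h they were at -0.069 and -0.57, and Zc3h13 with a pseudocount of 5 ppm at -0.028. For EB minus ESC in WT under the same 3 scalings, Cbll1 was at 0.56, 0.36 and 0.51, Mettl3 at 0.63, 0.43 and 0.58, Virma at 0.31, 0.090 and 0.26 and Rbm15b at 0.43, 0.21 and 0.37 (0.0018 without both EB libraries of 8 h), and Zc3h13 at 0.066 with equal totals and 0.0090 with ribosomal protein scaling. For EB minus ESC in KO, Mettl14 was at 0.34, 0.33 and 0.055. The mean slope of Mettl3 was 0.00043 with equal totals and 0.014 with median-ratio scaling, and that of Virma -0.0052 without both EB libraries of 8 h. The slope difference in ESCs of Mettl3 was -0.0065 with a pseudocount of 0.2 ppm and -0.020, -0.032 and -0.0075 under the scalings. In EBs that of Cbll1 was -0.032, -0.0081 and -0.073, and that of Mettl14 -0.060 without both EB libraries of 8 h. The difference of KO minus WT between cell types was -0.083 for Rbm15 with a pseudocount of 5 ppm and -0.069 with ribosomal protein scaling, where Wtap was at -0.11.

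Leaving out 1 library at a time, these ranges crossed 0. KO minus WT ran from -1.27 to 0.0028 for Mettl3 in ESCs, and in EBs from -0.27 to 0.22 for Zc3h13 and from -0.58 to 0.40 for Mettl14. Its difference between cell types ran from -1.63 to 0.0097 for Cbll1, -1.23 to 0.037 for Mettl3 and -0.15 to 0.48 for Rbm15. EB minus ESC in WT ran from -0.82 to 0.82 for Cbll1, -0.63 to 0.64 for Mettl3 and -0.62 to 0.0018 for Rbm15b, and in KO from -0.94 to 0.039 for Mettl14. The mean slope ran from -0.20 to 0.0044 for Cbll1 and -0.12 to 0.035 for Mettl3. The slope difference in ESCs ran from -0.23 to 0.59 for Cbll1, -0.32 to 0.32 for Mettl3 and -0.18 to 0.38 for Mettl14, and in EBs from -0.040 to 0.21 for Cbll1 and -0.063 to 0.43 for Mettl14.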
